A study of Homo sapiens with 12 samples.

Results

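RNA-seq libraries of KYSE150 cells carrying GFP-TFAP2β-Mut_IDR3 were set against libraries of the same line carrying GFP-TFAP2β-ΔIDR3, 3 libraries of each, which are 6 of the 12 libraries of the series. KYSE150 is a human cell line grown from a squamous cell carcinoma of the esophagus. The 2 groups were taken by their sample labels, and all 24302 features of the count table entered, of which 14792 had enough counts to be tested. The other libraries, 3 with GFP-TFAP2β without a named change (WT here) and 3 with GFP alone, serve as points of comparison. The series calls both altered forms deficient in liquid-liquid phase separation, and ΔIDR3 carries the usual sign for a deletion. The labels give neither the residues changed in Mut_IDR3 nor those missing from ΔIDR3, nor whether a group is 1 clone or a pool of cells, nor the promoter that drives the constructs. They do not say whether replicates were separate cultures either, so the p-values reflect the spread among these libraries alone, which may be technical.

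TFAP2β belongs to the AP-2 transcription factors, which bind GC-rich sites as dimers and act in skin, neural crest and kidney development. An intrinsically disordered region (IDR) is a stretch of protein without a fixed fold, and such stretches in transcription factors can help them gather with coactivators in droplet-like condensates. Comparing a form with an altered IDR3 with a form labelled as lacking it shows how far the RNA profiles of the cells differ between the altered forms.

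The 6 libraries held 30652851 to 42897578 counts, and levels are given as CPM, which puts each gene's count on the same library total after scaling by the trimmed mean method (TMM). The first principal component of the 6 libraries, which held 31.1% of their variance, separated the groups, and no library lay on the other group's side. The markers of squamous epithelium summed to 5700 to 5860 CPM in Mut_IDR3 and 4940 to 5200 CPM in ΔIDR3, so the labelled cell type was present in both. KRT5 had the highest level among them. Of the 11 markers 6 were called, against 10.8% of all tested features, and in both directions, with KRT17 higher and ITGA6 lower in Mut_IDR3. The sums of fibroblast, leukocyte and endothelial markers reached at most 5.35 CPM, and CD3D, MS4A1, PTPRC, PECAM1 and KDR had 0 counts in all 6 libraries. Mitochondrially encoded transcripts took 8.36 ± 0.235% of the counts in Mut_IDR3 and 7.72 ± 0.0634% in ΔIDR3 (SD, n = 3 each; exact permutation test, two-sided p = 0.1, the smallest p that 3 against 3 libraries allow). In such bulk samples, a change in the number of cells of a type and a change in RNA per cell cannot be told apart.

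The TFAP2B transcript itself differed between the groups by less than the spread of its libraries. TFAP2B (ENSG00000008196, chromosome 6, 50818723 to 50847613 on GRCh38) had 687, 732 and 687 CPM in the Mut_IDR3 libraries and 739, 742 and 632 CPM in the ΔIDR3 libraries. The groups overlapped, with the lowest value in ΔIDR3 replicate 3. The log2 fold change, always Mut_IDR3 minus ΔIDR3, was -0.01, with a 95% interval of -0.25 to 0.24 (adjusted p = 0.989). WT libraries held less, 280.3 ± 45.6 CPM (SD, n = 3), and GFP libraries 0.124 ± 0.142 CPM. Counts over TFAP2B check the presence of a construct, not its form, and a transcript with a part removed gives no reads from that part, so equal CPM need not mean equal numbers of molecules. Its relatives TFAP2A (53.7 ± 3.82 CPM in Mut_IDR3, 52.4 ± 2.96 CPM in ΔIDR3, log2 fold change 0.04, adjusted p = 0.774) and TFAP2C (38.2 ± 2.74 and 39.6 ± 3.03 CPM in the same order, -0.05, adjusted p = 0.768) were not called. Of the 14 tested members of the AP-2 family and its partners, edgeR, DESeq2 and limma-voom each called 0. Over all tested features edgeR called 10.8%, so few calls would fall among 14 genes at that share. At an unadjusted p under 0.05 edgeR had 1 higher and 1 lower. Leaving out Mut_IDR3 replicate 1 gave 1 call, higher, and removing a trend with GC content gave 1 call, lower.

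The cells differed at many genes, mostly by little. At an adjusted p under 0.05 in edgeR's quasi-likelihood test, 1594 of 14792 features (10.8%) were called, 819 higher in Mut_IDR3 (5.54%) and 775 lower (5.24%), and 61 of them were unnamed NewGene features. The median size of a called change was 0.35 on the log2 scale (1.27-fold). Changes reached 2-fold or more in 93 of the higher and 39 of the lower features. The 3 Mut_IDR3 and 3 ΔIDR3 values did not overlap in 1587 of the 1594 (816 higher, 771 lower), against 34.3% of all tested features (16.6% higher, 17.7% lower). Scaling by the upper quartile moved the split to 1074 higher and 570 lower (65.3% higher, against 51.4%), while the median over all features moved by less than 0.1 on the log2 scale (to 0.02). The counts were 557 higher and 360 lower without Mut_IDR3 replicate 1, 434 and 385 without its replicate 2, and 506 and 396 without its replicate 3. They were 670 higher and 473 lower without ΔIDR3 replicate 1, 479 and 365 without its replicate 2, and 546 and 402 without its replicate 3. No gene called in the full data was called with the opposite sign in any of these fits.

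**Figure D1:**
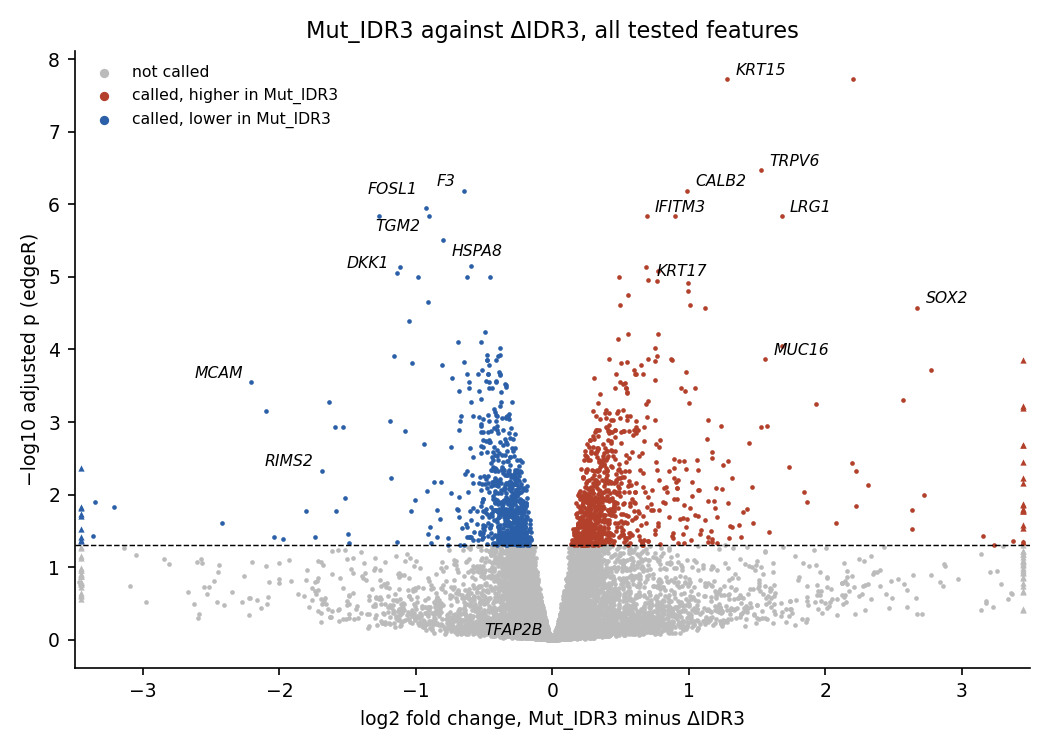
Each point is 1 of 14792 tested features, with the log2 fold change of Mut_IDR3 minus ΔIDR3 on the x axis and −log10 of edgeR's adjusted p on the y axis. The dashed line is an adjusted p of 0.05, coloured points are called, and triangles stand for 72 features beyond the x axis, 26 of them called. KRT15 and SOX2 stand out on the right, FOSL1, TGM2, F3, HSPA8 and MCAM on the left, and TFAP2B lies near 0.

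Where Mut_IDR3 and ΔIDR3 differed, it was most often ΔIDR3 that left the range spanned by the GFP and WT means. Among the 819 higher features, the ΔIDR3 mean was below both the GFP and the WT mean in 649, and the Mut_IDR3 mean was above both in 168. Among the 775 lower features, the ΔIDR3 mean was above both in 586, and the Mut_IDR3 mean was below both in 119. Over all called features ΔIDR3 lay outside the GFP to WT range in 78.5% and Mut_IDR3 in 45.5%, against 55.3% and 43.6% over all tested features. Of the 1594, the Mut_IDR3 mean was nearer than the ΔIDR3 mean to GFP in 73.5% and nearer to WT in 76.7%, against 57.0% and 62.9% over all tested features. In the 208 called features with at least 2-fold between the WT and GFP means, Mut_IDR3 was nearer to GFP in 70.2% and nearer to WT in 52.4%, against 50.3% and 54.6% of all 2069 tested features with such a gap. In these 208, ΔIDR3 lay outside the range in 52.9% and Mut_IDR3 in 35.1%, against 27.7% and 23.1% of the 2069. ΔIDR3 was outside in 64.5% of the called higher and 39.8% of the called lower features among the 208. These shares describe the same libraries that gave the calls and were not tested, and WT libraries held less TFAP2B RNA than either altered form.

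**Figure D2:**
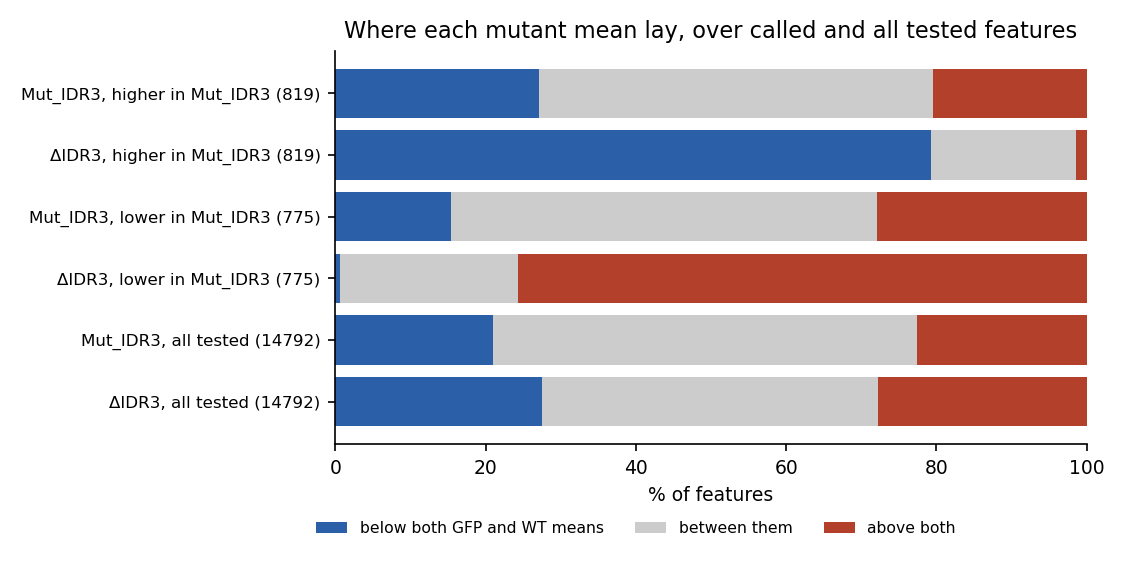
Each bar divides a set of features by where the group mean of Mut_IDR3 or ΔIDR3 lay relative to the GFP and WT means, as % of features, with the size of the set in parentheses. The ΔIDR3 bars of the called features are mostly outside the range (649 of 819 below both, 586 of 775 above both), while the Mut_IDR3 bars keep 429 of 819 and 440 of 775 between the 2 means.

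The genes described next were taken from called genes that reached 5 CPM in one of the groups, have an established symbol and did not overlap between the 3 Mut_IDR3 and 3 ΔIDR3 libraries, so the absence of overlap among them was set by that choice. KRT15, a keratin of basal squamous cells, had 427, 446 and 427 CPM in Mut_IDR3 libraries, against 192, 178 and 164 CPM in ΔIDR3 libraries. The groups were far apart, and the log2 fold change was 1.28 (SE 0.06, adjusted p = 1.87e-08). It averaged 38.2 ± 2.19 CPM with WT and 465 ± 10.6 CPM with GFP (SD, n = 3 each), so Mut_IDR3 stood near GFP and ΔIDR3 between the other two. SOX2, a transcription factor of squamous and stem cells that is often amplified in this cancer, had 7.78, 8.63 and 7.96 CPM in Mut_IDR3, against 1.90, 1.06 and 0.847 CPM in ΔIDR3. The groups did not overlap (log2 fold change 2.67, SE 0.27, adjusted p = 2.66e-05), with 0.105 CPM in WT and 4.98 CPM in GFP.

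TRPV6, an epithelial calcium channel, had 32.2, 30.2 and 26.9 CPM in Mut_IDR3, against 10.5, 10.1 and 10.4 CPM in ΔIDR3. The groups did not overlap, the log2 fold change was 1.53 (SE 0.09, adjusted p = 3.41e-07), and ΔIDR3 was below both the WT mean of 14.97 and the GFP mean of 40.6 CPM. LRG1, a secreted glycoprotein of the acute phase, had 13.2, 12.1 and 12.4 CPM in Mut_IDR3, against 4.22, 3.95 and 3.58 CPM in ΔIDR3. It was 3.21-fold higher in Mut_IDR3 (log2 fold change 1.68, SE 0.12, adjusted p = 1.45e-06), with ΔIDR3 close to the WT mean of 3.29 CPM. MUC16, a membrane mucin, had 9.29, 9.10 and 9.70 CPM in Mut_IDR3, against 2.75, 4.23 and 2.56 CPM in ΔIDR3 (log2 fold change 1.56, adjusted p = 0.000138). CALB2, a calcium-binding protein, rose by 0.99 on the log2 scale (79.0 ± 5.38 CPM in Mut_IDR3, 39.8 ± 0.946 CPM in ΔIDR3, adjusted p = 6.48e-07), and its Mut_IDR3 mean was above and its ΔIDR3 mean below both the WT mean of 53.1 and the GFP mean of 55.02 CPM.

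Other genes with a large or a well-supported rise had log2 fold changes of 1.14 for CLIC3, an intracellular chloride channel protein, 1.14 for the transcriptional repressor BCL6, 1.01 for the creatine kinase CKB, 1.00 for the membrane protease TMPRSS4 and 1.00 for the clock-controlled factor DBP. HCAR2, a receptor of hydroxycarboxylic acids, was at 0.90 and FXYD3, a regulator of the sodium pump, at 0.78. Of the genes named here and further on, TMPRSS4, DBP, FXYD3, LRG1, VPS33B, TGM2, MCAM, EVI2A, MMP24, RIMS2, IFITM2, IRF1, PSMB10, IFNGR2, KLK8, CFI, SAA2, CLDN7, CCND1, CCND2, RRS1, MTHFD2, CANX, MUC1 and FTH1 share their locus with another annotated feature. Whether the counting used strand is not given in the sources used here, so reads from these neighbours cannot be told apart. The globin gene HBE1 (0.99) spans several olfactory receptor genes and is uncertain for the same reason. VPS33B, among the largest rises at 1.18, had 17.3, 20.7 and 10.95 CPM in Mut_IDR3 and 7.89, 6 and 7.62 CPM in ΔIDR3, and lost its call in 2 of the alternatives.

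Among the falls taken by the same choice, MCAM, a cell adhesion molecule of melanoma and endothelium that is a described AP-2α target, had 1.32, 2.16 and 2.07 CPM in Mut_IDR3, against 10.3, 7.92 and 7.57 CPM in ΔIDR3. The groups did not overlap, and the log2 fold change was -2.21 (SE 0.29, adjusted p = 0.000284). The Mut_IDR3 libraries lay near GFP (2.25 ± 0.885 CPM), and the ΔIDR3 mean was above WT (5.92 ± 1.17 CPM). DKK1, a secreted inhibitor of Wnt signalling, had 45.1, 41.4 and 39.6 CPM in Mut_IDR3, against 97.3, 91.0 and 89.1 CPM in ΔIDR3. The ΔIDR3 libraries stood apart from all 3 other groups, since WT averaged 37.0 and GFP 43.0 CPM (log2 fold change -1.14, SE 0.10, adjusted p = 8.76e-06).

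TGM2, tissue transglutaminase, a protein cross-linking enzyme, had 268, 280 and 272 CPM in Mut_IDR3, against 522, 522 and 488 CPM in ΔIDR3. ΔIDR3 was again the highest of the 4 groups (log2 fold change -0.90, SE 0.07, adjusted p = 1.45e-06). F3, the tissue factor that starts blood coagulation, had 265, 269 and 281 CPM in Mut_IDR3, against 429, 429 and 420 CPM in ΔIDR3. It had the lowest adjusted p among the falls (log2 fold change -0.65, SE 0.04, adjusted p = 6.48e-07), and the WT mean of 312 and the GFP mean of 244 CPM were both below ΔIDR3. FOSL1, a subunit of the AP-1 transcription factor, had 52.7, 49.0 and 51.0 CPM in Mut_IDR3, against 94.6, 98.2 and 97.1 CPM in ΔIDR3 (log2 fold change -0.92, SE 0.06, adjusted p = 1.14e-06). Both groups lay between WT at 198 and GFP at 33.7 CPM, ΔIDR3 closer to WT than Mut_IDR3 was.

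TENM2, a large neuronal adhesion protein, was lower in Mut_IDR3 by a log2 fold change of -1.12 (25.2 ± 2.98 CPM in Mut_IDR3, 54.7 ± 4.17 CPM in ΔIDR3). The others among the largest falls were EVI2A (-1.64), the membrane metalloproteinase MMP24 (-1.53), ZNF703 (-1.16), the acetyl-CoA synthetase ACSS1 (-1.08), the membrane-associated protein MARCKSL1 (-1.05), the ERK phosphatase DUSP4 (-1.03), the Notch ligand DNER (-1.01, called with adjusted p = 0.0121 but not in 2 of the alternatives), CPED1 (-0.99), SH3TC2 (-0.94) and the mitochondrial transhydrogenase NNT (-0.92). RIMS2, a synaptic scaffold, fell by 1.69 with uneven libraries, 4.89, 6.39 and 5.31 CPM in Mut_IDR3 against 20.3, 24.6 and 8.64 CPM in ΔIDR3. Its ΔIDR3 replicate 3 was far below the others.

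**Figure D3:**
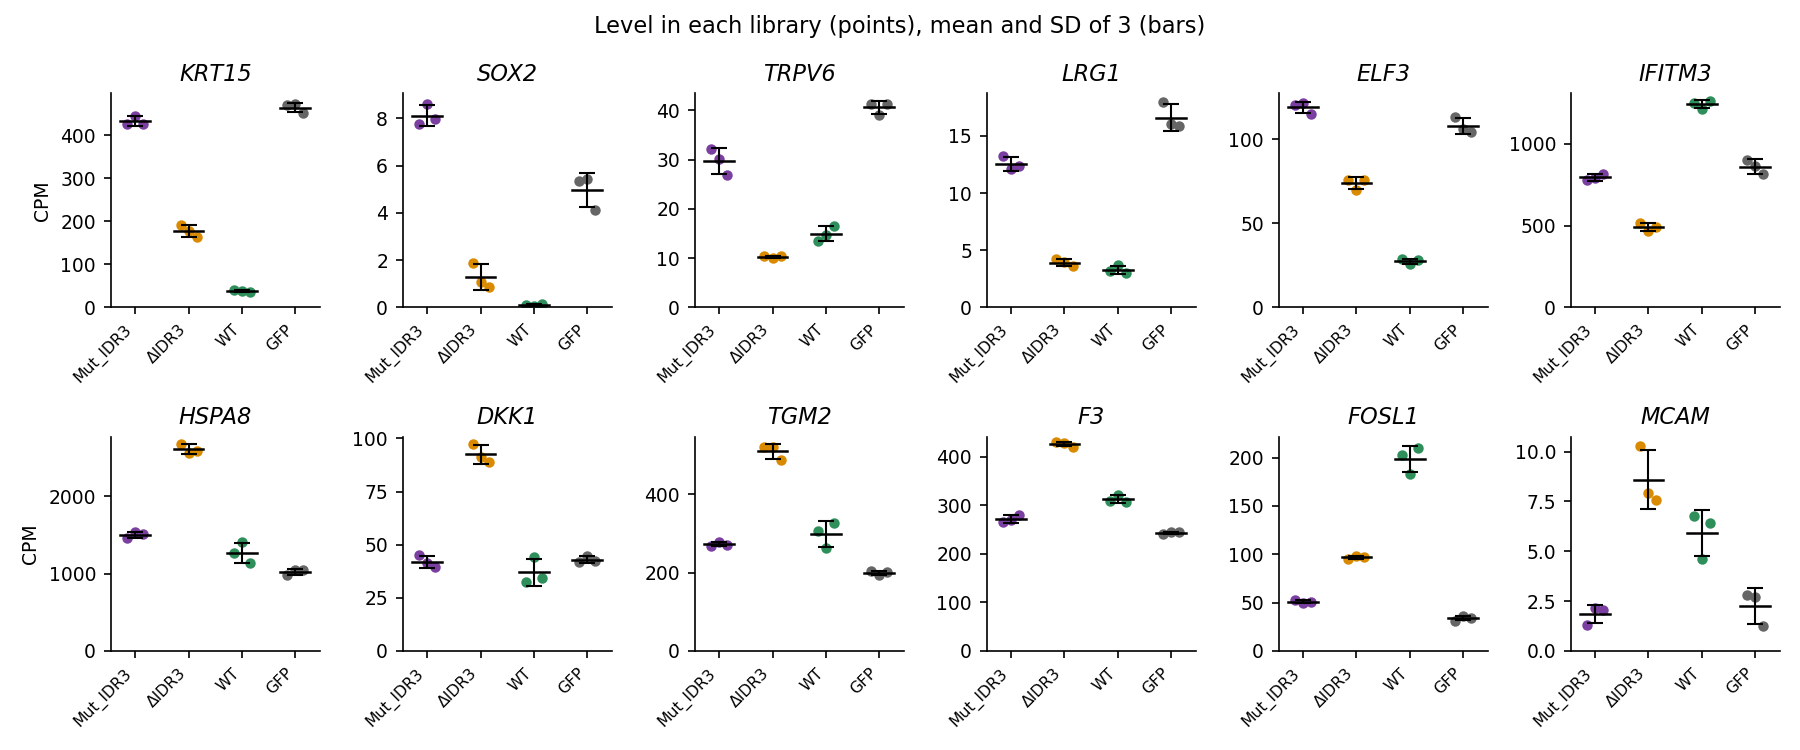
Points are the CPM of 12 genes in each library, from left to right Mut_IDR3, ΔIDR3, WT and GFP, and lines give the mean and SD of 3 libraries. ΔIDR3 is the highest group for HSPA8, DKK1, TGM2, F3 and MCAM and the lowest for TRPV6 and IFITM3, whereas for KRT15, SOX2, LRG1 and ELF3 it lies between WT and GFP.

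The AP-2 consensus GCCNNNGGC, a palindrome that reads alike on both strands, was searched for in the promoters of RefSeq (GRCh38.p14), 250 bases before to 50 after each start. It was held by 32.7% of the called higher genes with a promoter entry (594 of 819 features had one), by 28.3% of the called lower genes (632 of 775), by 32% of all tested genes with one and by 23.2% of the 35116 promoters of the same length in RefSeq. A match is a description of letters and not a bound site. Shown, because they are the largest rise and the largest fall among the genes described above and the fall with the lowest adjusted p, are the 250 bases before the starts of SOX2 (chr3:181711675-181711924, plus strand), MCAM (chr11:119317131-119317380, minus strand) and F3 (chr1:94541760-94542009, minus strand), 5′ to 3′, with the consensus in capitals.
SOX2: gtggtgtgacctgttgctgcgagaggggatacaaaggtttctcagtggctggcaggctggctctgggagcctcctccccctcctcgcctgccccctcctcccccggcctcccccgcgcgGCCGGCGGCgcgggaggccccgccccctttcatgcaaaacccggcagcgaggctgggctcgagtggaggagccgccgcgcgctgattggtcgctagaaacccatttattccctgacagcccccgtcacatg
MCAM: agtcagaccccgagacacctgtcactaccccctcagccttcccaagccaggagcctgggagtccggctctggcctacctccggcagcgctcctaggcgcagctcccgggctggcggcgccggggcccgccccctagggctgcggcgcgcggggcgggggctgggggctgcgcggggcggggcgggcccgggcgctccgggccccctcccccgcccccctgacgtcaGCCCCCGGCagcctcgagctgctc
F3: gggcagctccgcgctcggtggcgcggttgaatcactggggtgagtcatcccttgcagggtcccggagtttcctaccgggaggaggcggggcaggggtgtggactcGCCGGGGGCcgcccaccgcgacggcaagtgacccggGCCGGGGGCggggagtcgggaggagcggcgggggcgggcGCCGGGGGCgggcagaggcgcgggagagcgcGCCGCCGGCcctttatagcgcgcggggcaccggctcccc
SOX2 and MCAM, which moved in opposite directions, each held 1 match, and F3 held 4.

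Gene lists were then described by their called members and median log2 fold change, beside 5.54% called higher, 5.24% called lower and a median of -0.01 over all tested features. Of the 4 groups, ΔIDR3 had the lowest mean in 79.5% of all called higher features and the highest in 75.6% of all called lower ones. Counts of lowest or highest means in a list thus follow in part from its called members. Members too low to be tested are not in these counts. Genes without counts in 1 group were set to a bound from 3 counts over that group. This was done where the other group had more than 3 counts, and it left the medians as they are. Genes without counts in 1 or in both of the groups were 5 of the interferon-stimulated genes and 4 of the interferons and receptors. They were also 2 of the squamous differentiation genes and 2 of the described AP-2 targets. Those without counts in both groups passed the filter through the WT or GFP libraries and have a log2 fold change of 0.

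**Figure D4:**
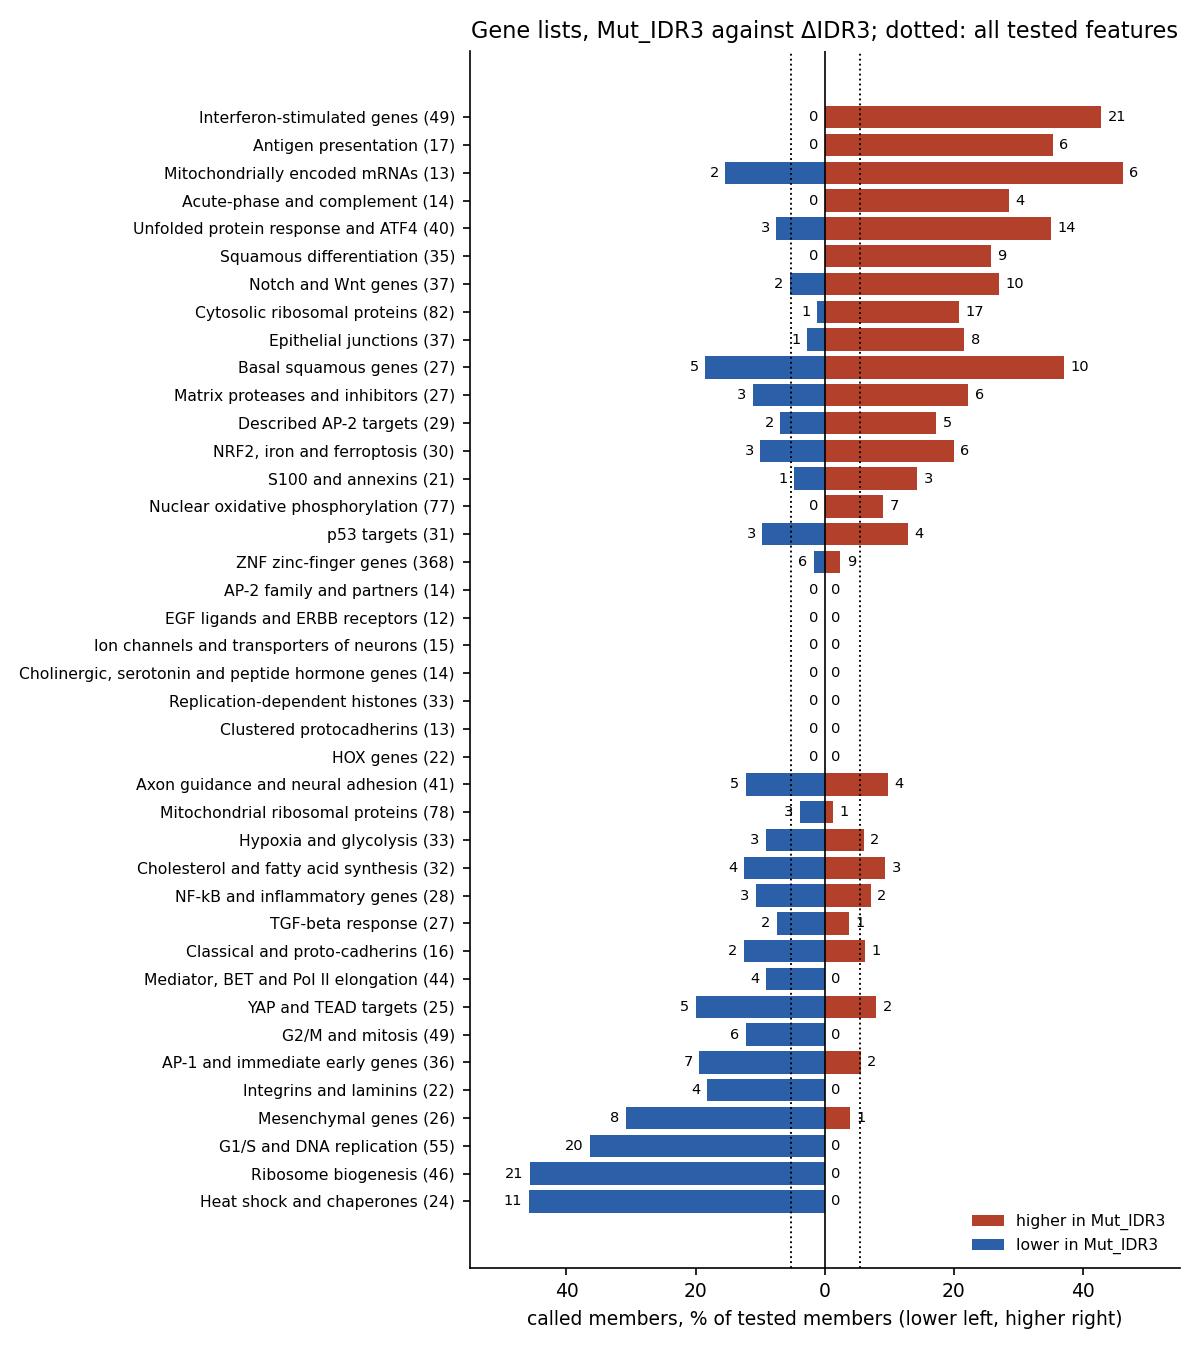
Bars give the share of tested members of each list called higher (right) or lower (left) in Mut_IDR3, in %, with the number of called members at the bar ends and of tested members in parentheses, for lists with at least 12 tested members. Dotted lines mark 5.54% and 5.24%, the shares over all tested features. Interferon-stimulated genes (21 higher) are at the top, and G1/S (20), ribosome biogenesis (21) and heat shock genes (11 lower) at the bottom.

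Interferon-stimulated genes, the effectors and sensors of antiviral defence, were called in the higher direction alone. Of 49 tested among 53 listed, 21 were called higher and 0 lower (0 lower also by DESeq2 and limma-voom, and 1 at an unadjusted p under 0.05 by edgeR), with a median of 0.43. IFITM3, which blocks the entry of enveloped viruses, had 776, 793 and 813 CPM in Mut_IDR3, against 517, 466 and 492 CPM in ΔIDR3. All Mut_IDR3 libraries were above all ΔIDR3 libraries (log2 fold change 0.69, SE 0.05, adjusted p = 1.45e-06), while WT averaged 1242 and GFP 860 CPM. IRF1, a transcription factor of the interferon response, had 45.3, 49.4 and 48.6 CPM in Mut_IDR3 and 33.3, 31.98 and 32.2 CPM in ΔIDR3 (0.56, adjusted p = 6.22e-05). UBE2L6, the conjugating enzyme of ISG15, rose by 0.70 and IFITM2 by 0.53. ΔIDR3 had the lowest mean of the 4 groups in 35 of the 49 genes and the highest in 0, against 23.5% lowest and 23.0% highest over all tested features. A fit of these 6 libraries alone tested 40 of the list, so some of the 49 passed the filter through the WT or GFP libraries. For those, a low mean in the altered forms follows in part from the filter. The median against GFP was -0.45 for Mut_IDR3 and -0.91 for ΔIDR3, and against WT -1.81 and -2.91. These comparisons share their GFP or WT libraries. The number of called genes fell to 11 without Mut_IDR3 replicate 2, to 14 without Mut_IDR3 replicate 3 and to 14 without ΔIDR3 replicate 3. It was 12 with limma-voom, and 11 of 40 tested, with a median of 0.38, when only these 6 libraries entered the fit. Over all features that fit called more, 2290 against 1594, so the 21 calls depend in part on the WT and GFP libraries in the fit.

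Antigen presentation genes, which interferon also raises, followed the same direction. Of 17 tested, 6 were higher and 0 lower (0 also by DESeq2 and limma-voom, and 1 at an unadjusted p under 0.05), with a median of 0.22. The immunoproteasome subunit PSMB10 had 44.8, 48.2 and 44.7 CPM in Mut_IDR3 and 32.3, 29.8 and 32.5 CPM in ΔIDR3, without overlap (0.54, adjusted p = 0.000345). The peptide-loading protein TAPBP rose by 0.47 and HLA-E, a class I molecule seen by natural killer cells, by 0.27. The interferon gamma receptor chain IFNGR2 was the only member called among 9 tested interferons and receptors (0.37, adjusted p = 0.00294).

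Basal squamous genes moved in both directions. Of 27 basal squamous genes, 10 were higher and 5 lower, with a median of 0.15. Beside KRT15 and SOX2, KRT17 had 748, 750 and 698 CPM in Mut_IDR3, against 464, 458 and 427 CPM in ΔIDR3, with no overlap (0.70, SE 0.06, adjusted p = 1.11e-05). LAMA3, a chain of the laminin that anchors basal cells to the basement membrane, went the other way, with 37.1, 33.5 and 37.9 CPM in Mut_IDR3 and 52.8, 60.8 and 51.9 CPM in ΔIDR3 (-0.61, adjusted p = 0.000284). Without Mut_IDR3 replicate 2 the higher genes numbered 6. The lower ones numbered 2 without Mut_IDR3 replicate 2 or ΔIDR3 replicate 2 and 3 without Mut_IDR3 replicate 1 or 3 or ΔIDR3 replicate 1.

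Of 35 tested among 51 squamous differentiation genes, 9 were higher and 0 lower, also 0 lower by DESeq2, by limma-voom and at an unadjusted p under 0.05, with a median of 0.31. ELF3, an epithelial transcription factor, had 120, 122 and 115 CPM in Mut_IDR3, against 76.0, 69.9 and 75.9 CPM in ΔIDR3. It did not overlap (0.69, SE 0.06, adjusted p = 7.40e-06), and Mut_IDR3 lay just above GFP (108 CPM), while WT was at 27.5 CPM. SERPINB1, a protease inhibitor, had 140, 136 and 136 CPM in Mut_IDR3 and 82.7, 76.3 and 82.4 CPM in ΔIDR3 (0.77, adjusted p = 1.14e-05). SLPI, a secreted protease inhibitor, rose by 1.12 (adjusted p = 2.66e-05), and NOTCH3, a receptor active above the basal layer, by 1.04 (adjusted p = 0.000345). ΔIDR3 had the lowest mean of the 4 groups in 24 of the 35, against 23.5% of all tested features. A fit of these 6 libraries alone tested 30 of this list, so here too some members passed the filter through the WT or GFP libraries. Of 8 tested kallikreins and SLPI, 4 were higher, among them KLK5, a protease of skin shedding, at 0.31, KLK8 at 1.32 and KLK10, which lost its call in 8 of the alternatives, at 0.37. None was lower, also by DESeq2, by limma-voom and at an unadjusted p under 0.05. Of 14 acute-phase and complement genes, 4 were higher, LRG1, CFI (2.19), SAA1 (1.93) and SAA2 (1.43). The last 3 were at low levels, with CFI at 2.15 CPM in Mut_IDR3 and 0.468 CPM in ΔIDR3. In the same order SAA1 had 2.97 and 0.770 CPM, and SAA2 0.682 and 0.250 CPM. SAA1 was higher in WT (17.0 CPM) and GFP (6.53 CPM) than in both altered forms, as was SAA2 (5.15 and 2.06 CPM). SAA1 and SAA2 are near-identical copies and uncertain, and SAA2 lost its call under 6 alternatives.

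Cell junction genes followed in part, with 8 of 37 higher and 1 lower (0 lower without Mut_IDR3 replicate 1 or 2 or ΔIDR3 replicate 1 or 3) and a median of 0.08, against 0.13 without ΔIDR3 replicate 1 and 0.13 with the length trend removed. The tight junction protein TJP3 had 12.2, 11.99 and 12.4 CPM in Mut_IDR3 and 7.14, 6.18 and 5.69 CPM in ΔIDR3 (0.94, adjusted p = 0.000345), and the claudin CLDN7 had 129, 127 and 129 CPM in Mut_IDR3 and 91.7, 81.3 and 88.5 CPM in ΔIDR3 (0.56, adjusted p = 1.75e-05). Both stood clear of overlap. The count of higher genes is unstable, 2 without Mut_IDR3 replicate 2 or ΔIDR3 replicate 3, 3 without Mut_IDR3 replicate 3 and 5 without Mut_IDR3 replicate 1 or ΔIDR3 replicate 2.

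Notch and Wnt genes held 10 higher and 2 lower of 37 tested (1 lower without replicate 1 or 3 of either group). The median was 0.11, against 0.19 without ΔIDR3 replicate 1, 0.06 without ΔIDR3 replicate 3 and 0.07 with the GC trend removed. HES2, of the HES family of transcriptional repressors, had 20.2, 19.2 and 18.9 CPM in Mut_IDR3 and 11.03, 9.72 and 10.9 CPM in ΔIDR3 (0.88, adjusted p = 0.000138). The ligand WNT10A had 40.3, 46.3 and 48.6 CPM in Mut_IDR3 and 27.9, 26.5 and 26.0 CPM in ΔIDR3 (0.75, adjusted p = 9.61e-05). Both were clear of overlap. NOTCH3 rose as well, while the Wnt inhibitor DKK1 and the Notch ligand DNER, both described above, fell. By sign alone, 23 of the 37 leaned higher and 14 lower, so the list did not move as a block. The higher genes numbered 6 without ΔIDR3 replicate 2.

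Heat shock genes, whose products fold and refold proteins, went the opposite way. Of 24 tested, 11 were lower in Mut_IDR3 and 0 higher (0 higher by limma-voom, 1 by DESeq2 and 1 at an unadjusted p under 0.05), with a median of -0.20. ΔIDR3 had the highest mean of the 4 groups in 15, against 23.0% of all tested features. HSPA8, the constitutive cytosolic HSP70, had 1464, 1534 and 1509 CPM in Mut_IDR3, against 2684, 2566 and 2582 CPM in ΔIDR3. Every ΔIDR3 library was well above every Mut_IDR3 library (log2 fold change -0.80, SE 0.06, adjusted p = 3.08e-06), with WT at 1269 and GFP at 1024 CPM. The inducible HSP70 genes HSPA1A (130, 129 and 128 CPM in Mut_IDR3, 203, 201 and 193 CPM in ΔIDR3, log2 fold change -0.63) and HSPA1B (-0.60) are near-identical, and reads may be shared between them. DNAJA1, an HSP40 cochaperone, had 84.7, 82.0 and 86.8 CPM in Mut_IDR3, against 128, 133 and 130 CPM in ΔIDR3 (-0.63, SE 0.08, adjusted p = 0.000217). In these 4 genes WT and GFP were below ΔIDR3, and no libraries overlapped. The called members numbered 7 without Mut_IDR3 replicate 2 or ΔIDR3 replicate 2.

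The promoters of this list were searched for the heat shock element in the form GAANNTTC, which is palindromic, a motif chosen after the values were seen. It was found in 8 of the 21 members with a promoter entry, against 4.70% of all tested genes and 6.77% of all RefSeq promoters. Within the list it was held by 4 of 11 called members and by 4 of 10 that were not called. HSPA8, DNAJA1 and HSPA1A are shown as called members with the element, by the 250 bases before their RefSeq starts (GRCh38.p14), 5′ to 3′, at chr11:123062137-123062386 (minus strand), chr9:33025023-33025272 (plus strand) and chr6:31815293-31815542 (plus strand), with the element in capitals.
HSPA8: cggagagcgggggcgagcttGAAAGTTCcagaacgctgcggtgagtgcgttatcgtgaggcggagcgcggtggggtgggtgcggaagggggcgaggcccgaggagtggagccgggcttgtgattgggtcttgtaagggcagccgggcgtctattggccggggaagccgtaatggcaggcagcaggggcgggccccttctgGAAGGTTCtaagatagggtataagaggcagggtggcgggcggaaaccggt
DNAJA1: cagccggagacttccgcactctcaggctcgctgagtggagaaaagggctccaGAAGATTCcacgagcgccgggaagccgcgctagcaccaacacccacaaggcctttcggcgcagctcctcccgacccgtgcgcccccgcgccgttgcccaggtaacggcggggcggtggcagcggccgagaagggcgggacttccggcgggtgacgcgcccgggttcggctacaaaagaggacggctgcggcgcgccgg
HSPA1A: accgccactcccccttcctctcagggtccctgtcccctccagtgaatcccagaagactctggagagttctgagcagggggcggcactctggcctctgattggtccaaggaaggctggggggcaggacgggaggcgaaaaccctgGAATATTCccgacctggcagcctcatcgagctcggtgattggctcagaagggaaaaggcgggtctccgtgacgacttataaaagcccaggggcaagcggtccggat
These stretches held no AP-2 consensus.

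The called genes of G1/S and DNA replication were all lower in Mut_IDR3. Of 55 tested, 20 were lower and 0 higher, 0 also by DESeq2, by limma-voom and at an unadjusted p under 0.05, with a median of -0.22. CCND2, a D-type cyclin, had 421, 422 and 444 CPM in Mut_IDR3, against 551, 556 and 572 CPM in ΔIDR3. The groups did not overlap (-0.38, SE 0.04, adjusted p = 9.64e-05). MCM10, which helps to load the replication machinery, had 54.4, 50.5 and 54.5 CPM in Mut_IDR3, against 74.8, 79.4 and 78.6 CPM in ΔIDR3 (-0.55, adjusted p = 0.000217). UHRF1, which maintains DNA methylation at replication, was at -0.41 and the cyclin CCND1 at -0.34. ΔIDR3 had the highest mean of the 4 groups in 43 of the 55 genes, against 23.0% of all tested features. The median against GFP was 0.18 for Mut_IDR3 and 0.38 for ΔIDR3. The called members numbered 13 without Mut_IDR3 replicate 1 or ΔIDR3 replicate 3 and 12 without any of the other 4 libraries.

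Genes of G2/M and mitosis leaned the same way with weaker support. Of 49 tested, 6 were lower and 0 higher (0 higher by limma-voom, 1 by DESeq2 and 1 at an unadjusted p under 0.05), 12.2% against 5.24%, with a median of -0.19. DESeq2 called 11 lower, the fit of these 6 libraries alone 13 and upper-quartile scaling 3. There were 2 lower without ΔIDR3 replicate 1, 1 without Mut_IDR3 replicate 3 and 0 without any of the other 4 libraries. CDC20, the activator of the anaphase-promoting complex, had 317, 309 and 302 CPM in Mut_IDR3 and 368, 345 and 352 CPM in ΔIDR3 (-0.20, adjusted p = 0.0278), a call lost in 6 of the alternatives.

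The called genes of ribosome biogenesis, which make and process ribosomal RNA in the nucleolus, were all lower in Mut_IDR3. Those called among the cytosolic ribosomal protein genes were higher, with 1 exception. Of 46 biogenesis genes, 21 were lower, 0 higher and 25 not called. None was higher by DESeq2, by limma-voom or at an unadjusted p under 0.05. The median of the 46 was -0.20. ΔIDR3 had the highest mean of the 4 groups in 31, against 23.0% of all tested features. NOP56, a core protein of box C/D small nucleolar particles, had 162, 166 and 170 CPM in Mut_IDR3, against 240, 233 and 239 CPM in ΔIDR3. It did not overlap (-0.52, SE 0.06, adjusted p = 7.94e-05). NCL, the nucleolar protein nucleolin, had 623, 622 and 650 CPM in Mut_IDR3 and 801, 854 and 818 CPM in ΔIDR3 (-0.38, adjusted p = 0.000601). RRS1 was at -0.47 and NOP14 at -0.43. Of 82 ribosomal protein genes, 17 were higher (28 with DESeq2), 1 was lower and 64 were not called. Their median was 0.13, against 0.04 without ΔIDR3 replicate 2 and 0.08 with a trend by transcript length removed. RPLP1, of the ribosomal stalk, had 1950, 1970 and 1964 CPM in Mut_IDR3 and 1570, 1292 and 1541 CPM in ΔIDR3 (0.42, adjusted p = 0.00111), and RPLP0 and RPS2 were at 0.26 and 0.23. Biogenesis genes called lower numbered 13 without ΔIDR3 replicate 2. Ribosomal protein genes called higher numbered 6 without Mut_IDR3 replicate 2, 7 without Mut_IDR3 replicate 3 and 8 without ΔIDR3 replicate 2. Ribosomal protein genes have many near-identical processed copies, so their counts are uncertain.

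**Figure D5:**
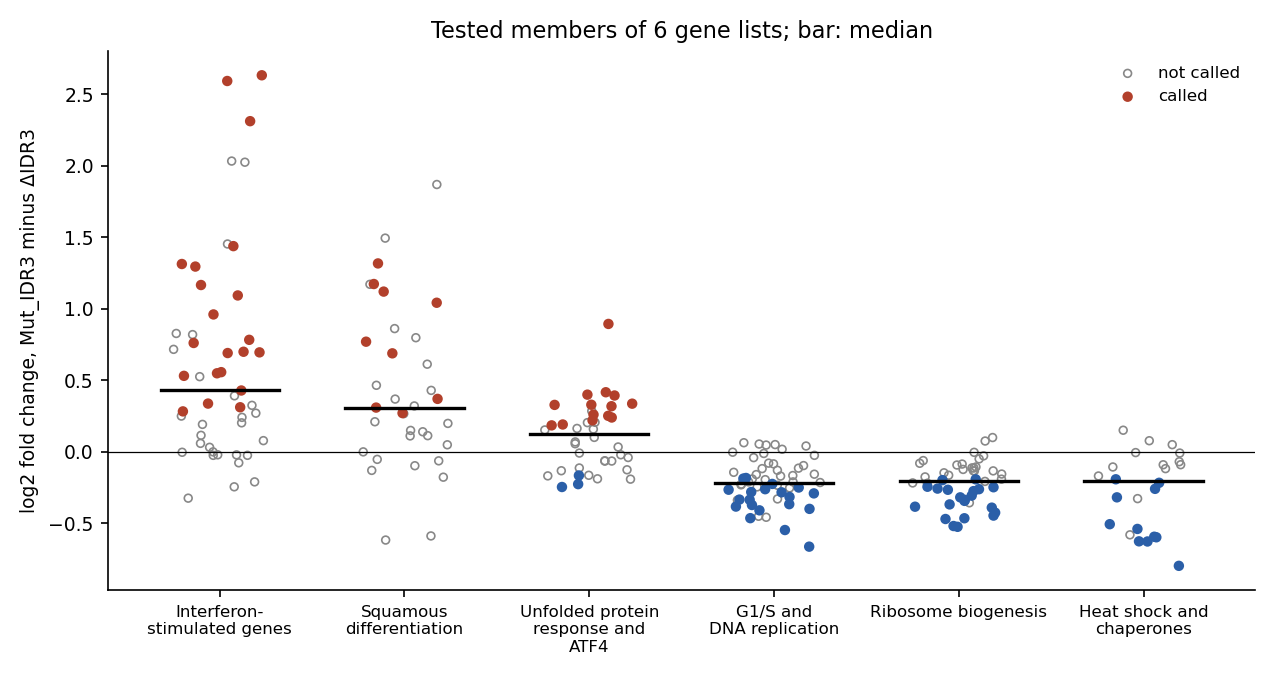
Points are the tested members of 6 lists, with the log2 fold change of Mut_IDR3 minus ΔIDR3 on the y axis, filled where called, and bars give the list median. Members without counts in 1 of the 2 groups are drawn at a bound from 3 counts over the group, where the other group had more than 3. Interferon-stimulated and squamous differentiation genes have medians of 0.43 and 0.31, and G1/S, ribosome biogenesis and heat shock genes -0.22, -0.20 and -0.20.

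The unfolded protein response and ATF4 list held genes that moved in both directions. Of 40 tested, 14 were higher and 3 lower, with a median of 0.13. ASNS, which makes asparagine and is a target of ATF4, had 275, 286 and 276 CPM in Mut_IDR3, against 221, 207 and 209 CPM in ΔIDR3. The groups were apart (0.39, SE 0.06, adjusted p = 0.000687). The serine and folate enzymes PHGDH and MTHFD2 and the mTOR inhibitor DDIT4 rose by 0.34, 0.33 and 0.33, and ATF4 itself, picked after its values were seen, by 0.25 (adjusted p = 0.00464). The 3 lower members, also named after their values were seen, were the endoplasmic reticulum chaperones CALR (-0.25, adjusted p = 0.00561), CANX (-0.23, adjusted p = 0.00795) and HSPA5 (-0.17, adjusted p = 0.0414, a call lost under 14 alternatives). The number of higher members was 7 without ΔIDR3 replicate 3, 8 without ΔIDR3 replicate 2, Mut_IDR3 replicate 2 or Mut_IDR3 replicate 3 and 9 without Mut_IDR3 replicate 1.

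Mesenchymal and AP-1 genes were lower more often than higher in Mut_IDR3. Of 26 mesenchymal genes, 8 were lower and 1 higher (0 higher without replicate 2 or 3 of either group). The median was -0.08, but -0.24, -0.18 and -0.18 without Mut_IDR3 replicate 1, 2 and 3, -0.19 without ΔIDR3 replicate 1 and -0.15 without ΔIDR3 replicate 3. It was between -0.05 and -0.15 under the changes of scaling, filter and length trend. The receptor kinase AXL had 316, 316 and 329 CPM in Mut_IDR3 and 429, 417 and 408 CPM in ΔIDR3 (-0.39, adjusted p = 0.000121), without overlap. The muscle-type tropomyosin TPM2 and the matrix protein TNC were at -0.62 and -0.38. Of 36 AP-1 and immediate early genes, 7 were lower and 2 higher (1 higher without replicate 2 or 3 of either group). The median was -0.08, against -0.05 without replicate 1 of either group, -0.12 without Mut_IDR3 replicate 2 and -0.05 with upper-quartile scaling. JUN, a subunit of AP-1, had 14.95, 15.7 and 13.3 CPM in Mut_IDR3, against 25.7, 25.4 and 25.7 CPM in ΔIDR3 (-0.81, adjusted p = 0.000166), and CYR61, a secreted matrix protein also counted among the YAP and TEAD targets, had 491, 480 and 499 CPM in Mut_IDR3 and 677, 660 and 675 CPM in ΔIDR3 (-0.45, adjusted p = 1.02e-05). With F3, AXL and FJX1 (-0.44), it is 1 of the 5 lower among 25 YAP and TEAD targets, of which 2 were higher (1 without Mut_IDR3 replicate 1 and 0 without any other).

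Neural crest genes (0 higher and 3 lower of 7 tested among 25 listed, none higher by DESeq2, limma-voom or at an unadjusted p under 0.05) had a median of -0.45, with the lineage factor SOX9 at 13.6, 15.4 and 15.5 CPM in Mut_IDR3 and 19.1, 21.4 and 21.3 CPM in ΔIDR3 (-0.47, adjusted p = 0.00551). Described AP-2 targets gave 5 higher and 2 lower of 29, with a median of 0.11, against 0.07 without ΔIDR3 replicate 3 and 0.05 without a filter on low counts. DESeq2 called 8 higher, and edgeR 2 without Mut_IDR3 replicate 2 and 3 without Mut_IDR3 replicate 3. Beside MCAM they included the mucin MUC1 (0.84, adjusted p = 0.00783), the simple epithelial keratin KRT18 (0.28) and the vasoactive peptide gene ADM (-0.43, adjusted p = 0.00336), all without overlap. KRT18 overlaps KRT8 on the opposite strand, so its reads are uncertain.

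Genes of iron handling moved in both directions. TFRC, the transferrin receptor that takes up iron, had 254, 235 and 230 CPM in Mut_IDR3, against 337, 350 and 321 CPM in ΔIDR3. Its groups did not overlap (-0.49, SE 0.05, adjusted p = 5.82e-05), and with WT it was at 96.1 CPM. The ferritin chains, which store iron, were higher, FTH1 with 1852, 1880 and 1913 CPM in Mut_IDR3 and 1540, 1465 and 1552 CPM in ΔIDR3 (0.31, adjusted p = 0.00025) and FTL at 0.25 (adjusted p = 0.00294). In all, 6 of 30 genes of NRF2, iron and ferroptosis were higher and 3 lower. Ferritin genes have many processed copies in the genome.

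Mitochondrially encoded mRNAs did not move as a block. Of 13, 6 were higher in Mut_IDR3, with MT-CO1, a subunit of complex IV, at 0.30 (adjusted p = 0.000707) and MT-ND5, a subunit of complex I, at 0.33, and 2 were lower, among them MT-ND1 at -0.29 (adjusted p = 0.0131). Of the lower ones 0 were called without Mut_IDR3 replicate 2 and 1 without any other. With a trend by transcript length removed the counts were 3 higher and 3 lower. By edgeR, 0 of 33 replication-dependent histone genes, 0 of 22 HOX genes and 0 of 12 EGF ligands and ERBB receptors were called, against 10.8% of all tested features. DESeq2 called 1 in each of these 3 lists and limma-voom 0. The fit of these 6 libraries alone called 3 genes of the EGF list, 1 histone gene and 1 HOX gene. Without Mut_IDR3 replicate 1 the EGF list had 1 call, and without ΔIDR3 replicate 1 the histones had 1. Upper-quartile scaling, a filter of 1 CPM and the fit without NewGene features each called 1 histone and 1 HOX gene. With the GC trend removed, 1 HOX gene and 1 gene of the EGF list were called. At an unadjusted p under 0.05 edgeR had 1 histone gene, 3 HOX genes and 3 genes of the EGF list.

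Called genes differed in base composition. The median GC content of the longest transcript was 54.9% in the 776 called higher genes with a value, 45.6% in the 757 called lower genes and 48.8% in all 12724 tested genes with one. Across those genes, which are not independent replicates and share the libraries, Spearman's correlation between the log2 fold change and GC content was 0.25, and that with transcript length -0.13. After a trend with GC content was removed from every library, 88.4% of the called features were still called in the same direction and 0 in the opposite one, and the medians were 0.43 for the interferon-stimulated genes, 0.29 for squamous differentiation, -0.18 for G1/S, -0.20 for ribosome biogenesis and -0.18 for heat shock genes.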

How the data were processed

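RNA-seq of 12 libraries was analysed from the authors' deposited table of raw counts per gene. Trim Galore, HISAT2, StringTie and GRCh38 (hg38) are named in the submitters' processing notes, without versions; the counter, its use of strand and its handling of reads that map to several places are not given in the sources used here. Levels are CPM with TMM factors. Features kept by filterByExpr (14792) were tested with edgeR 4.0.16 (R 4.3.3), by the quasi-likelihood test with group as the factor and all 4 groups sharing 1 estimate of spread (8 residual degrees of freedom). P-values were adjusted by the Benjamini-Hochberg method over all tested features, and features under 0.05 were called. DESeq2 1.42.0, limma-voom (limma 3.58.1), other scalings and filters, GC and length corrections, a replicate block and leaving out each library were alternatives. The fit was tested on simulated data. Library totals, 30652851 to 43464956 counts, limit the precision of low genes.

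Samples were grouped by their labels. Named genes are TFAP2B, the 15 largest rises and 15 largest falls among called genes that reached 5 CPM in one of the groups, with no overlap and an established symbol, the 10 lowest adjusted p-values in each direction, and of each list the 4 called members with the lowest adjusted p (all members of lists with up to 14 tested). Members and lists were chosen with earlier results of these data known. TFAP2A and TFAP2C are members of the AP-2 list. Pairs of libraries of the same group differed by more than sampling noise, so no library was a copy of another. Each library was entered as 1 replicate. This check cannot tell separate cultures from technical replicates.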

Additional observations from a re-analysis of the deposited data

How the results depend on the processing

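Of the 1594 called features, between 49.8% (without Mut_IDR3 replicate 2) and 98.5% (DESeq2) kept their call in the same direction under the alternatives that did not change the threshold, and 0 were called in the opposite one. At an adjusted p under 0.01 the counts were 325 higher and 271 lower, and with at least 2-fold required 93 and 39. Leaving out 1 library gave 434 to 670 higher and 360 to 473 lower. The fits without a library are smaller by construction. The replicate block gave 628 higher and 578 lower, with 74.3% of the calls kept. Libraries with the same replicate number did not deviate together (correlations -0.068, -0.034 and 0.023), so the numbers were not taken as pairs. The other alternatives gave counts within 1.5 times of the main ones.

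TFAP2B lay so near 0 that its sign turned, with no call in any fit. Its log2 fold change was 0.00261 with median-ratio scaling, 0.0239 with upper-quartile scaling, 0.00122 without a filter and 0.00793 with a filter of 1 CPM. It was 0.0026 with DESeq2, 0.00521 with only these 6 libraries, 0.0101 with named symbols alone, 0.00336 without mitochondrially encoded mRNAs, 0.0119 with the GC trend removed and 0.0199 with the length trend removed. Leaving out 1 library gave -0.069 to 0.0418 for TFAP2B, -0.0204 to 0.0934 for TFAP2A and a log2 fold change of TFAP2C of -0.102 to 0.00706. Of 164 genes followed through the alternatives other than the stricter thresholds, 116 were called in every one in which they were tested, and in 45 a call was lost in at least 1; the cause was not tested.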

Other observations

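Some called genes at low levels had no counts in any library of 1 of the groups compared, and the 4 given here were picked after their values were seen. CAPN6, a calpain-like protein that binds microtubules, averaged 1.24 CPM in Mut_IDR3 and had 0 counts in the 3 ΔIDR3 libraries (adjusted p = 0.00599, edgeR), with 1.202 CPM in WT and 0.169 CPM in GFP. EBF2, a transcription factor of fat and neural development, averaged 1.08 CPM in Mut_IDR3 and was at 0 in ΔIDR3 and WT (adjusted p = 0.000638, edgeR), with 0.580 CPM in GFP. CD40, a receptor of immune activation that some epithelial cells carry, averaged 0.700 CPM in Mut_IDR3 and 0 in ΔIDR3 (adjusted p = 0.00205, edgeR), with 0.712 CPM in WT and 0.333 CPM in GFP. In the other direction PLIN2, a coat protein of lipid droplets, was at 0 in Mut_IDR3 and averaged 0.308 CPM in ΔIDR3 (adjusted p = 0.00431, edgeR), with 0.0802 CPM in WT and 0.262 CPM in GFP.

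Among the features that carry no gene name, NewGene_6566 had 37.4, 41.1 and 39.9 CPM in Mut_IDR3, against 8.26, 8.73 and 8.64 CPM in ΔIDR3, one of the 2 lowest adjusted p-values of all features (log2 fold change 2.21, adjusted p = 1.87e-08, edgeR). NewGene_7925 had 55.2, 45.9 and 50.2 CPM in Mut_IDR3, against 121.7, 128.3 and 114.1 CPM in ΔIDR3 (-1.27, adjusted p = 1.45e-06, edgeR), with 36.8 CPM in WT and 5.24 CPM in GFP. Neither overlapped between the groups. Both were picked after their values were seen, and their positions were not used here.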
